A study of Mus musculus with 123 samples.

Results

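Bmp10, Jag1, Notch1, Erbb2, Erbb4, Fgfr1, Fgfr2, Igf1r, Ptch1 and Mycn encode ligands, receptors and a transcription factor that act on the growing myocardium. They were chosen by name as genes of growth factor and trabeculation signalling, with earlier results of these data known. All 10 were among the 23337 gene symbols of the count table. They were read in single αMHC+ cells sorted from αMHC-GFP mouse hearts, in which the cardiomyocyte promoter of α-myosin heavy chain drives GFP. The hearts were taken at embryonic day 9.5 (E9.5), E12.5 and postnatal day 1 (P1). Fluidigm C1 chips held the cells, and of 123 deposited cells 112 showed 2000 or more genes and were kept, with 42 from E9.5 hearts, 29 from E12.5 hearts and 41 from P1 hearts. No other allele or treatment is labelled, and no animal, litter or chip is named, so cells of a time point stand for 1 sample and no p-value across cells was computed. Embryonic hearts were digested with collagenase and P1 hearts with Liberase, so that age and digestion cannot be told apart.

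Trabeculae are the muscular ridges that grow into the lumen of the embryonic ventricle, while the compact wall thickens outside them. As background, neuregulin from the endocardium acts on the paired receptors ErbB2 and ErbB4 of the myocardium, Notch1 in the endocardium answers to ligands such as Jagged1, and BMP10 is made by trabecular myocardium and, later in life, by atrial myocardium. FGF and IGF receptors and the transcription factor Mycn are linked to growth of the compact wall, and Patched1 is at once the receptor and a target gene of Hedgehog signalling.

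Promoter sequence is shown for Bmp10, the one member called higher at P1 than at E12.5, and for Jag1 and Mycn, the members that were lower at P1 in both comparisons under every setting tried. RefSeq (GRCm38.p6) gave a promoter for 9 of the 10 members. The runs below are written 5′ to 3′ on the gene's strand and hold the bases before the RefSeq start that lie outside annotated exons, and capitals mark 5 motifs found on either strand. One was TGGGAA, the core bound by RBPJ, the transcription factor of Notch signalling. The others were AGATAA, which factors of the GATA family bind, CACGTG, the E-box of MYC and MAX, GGGCGG, the GC box, and the TATA box, searched as TATAAA. In Bmp10 the first 2 motifs share a base.
Bmp10, chr6:87428744-87428993, forward strand: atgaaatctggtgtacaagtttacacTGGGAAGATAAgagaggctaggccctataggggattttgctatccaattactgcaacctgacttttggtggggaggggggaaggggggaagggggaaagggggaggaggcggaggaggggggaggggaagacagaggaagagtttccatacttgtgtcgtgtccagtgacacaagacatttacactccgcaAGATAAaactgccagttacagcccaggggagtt
Jag1, chr2:137116645-137116770, reverse strand: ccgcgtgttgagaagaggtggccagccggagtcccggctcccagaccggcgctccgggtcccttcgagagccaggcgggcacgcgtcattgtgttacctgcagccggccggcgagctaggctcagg
Mycn, chr12:12941915-12942086, reverse strand: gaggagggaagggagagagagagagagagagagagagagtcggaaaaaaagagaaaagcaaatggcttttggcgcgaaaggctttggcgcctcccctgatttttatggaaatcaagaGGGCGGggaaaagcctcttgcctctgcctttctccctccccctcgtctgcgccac
Within 250 bases before the start, Bmp10 held 1 RBPJ core and 2 GATA motifs, which occurred in 21.6% and 9.99% of 32851 promoters. Jag1 held none of the 5 motifs there. Mycn held 2 GC boxes, a motif of 32.7% of promoters and 1 of them within the run shown, and Igf1r, Notch1 and Ptch1 held 2, 5 and 1. No member held an E-box (6.02% of promoters) or a TATA box (12.4%), Fgfr2 held 1 RBPJ core, and Erbb2 and Erbb4 held none of the 5. GC content of these windows was 52% in Bmp10, 57.2% in Jag1 and 54.8% in Mycn, close to the median of all promoters of 52.4%, and it reached 77.6% in Igf1r and 78.4% in Ptch1. A match in letters is a description and not a binding site.

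The kept cells differed in depth. Total counts per E9.5 cell ran from 268301 to 6351742, per E12.5 cell from 148258 to 7711355 and per P1 cell from 69522 to 327360. The cell titles fall into naming sets by their prefix. The E9.5 cells were 14 of set C and 28 of set N530. Of the E12.5 cells 20 were of set C, 8 of set N523 and 1 of set E12-5b, and all P1 cells were of set C. Set N530 held 94.5% of the E9.5 counts and set N523 82.7% of the E12.5 counts. Levels are given as CPM (counts per 1000000 counts) in a cell, and as pooled CPM, in which the counts of a time point are summed first. A ratio between time points was called when it was 2-fold or more in the pooled CPM and also in every combination of naming sets of 6 or more cells. The 12 cardiomyocyte markers had median sums of 75923, 52535 and 100561 CPM in cells of the 3 ages, in that order, and stayed under 10000 CPM in 4 E9.5 cells and 1 P1 cell. Of 10 endothelial markers, 2 or more reached 10 CPM in 10 E9.5 cells, no E12.5 cell and 1 P1 cell.

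Between E9.5 and E12.5 2 of the 10 members fell, Fgfr2 and Ptch1, and none rose, where 11.8% of 11131 tested genes fell and 3.31% rose. With TMM factors in place of totals these background shares were 8.9% and 5.76%, and of the members Fgfr2 alone was called. From E9.5 to P1 5 of 10 members fell, Jag1, Fgfr1, Fgfr2, Igf1r and Mycn, and none rose, where 26.7% of 11392 tested genes fell and 13.9% rose. From E12.5 to P1 5 of the 9 members tested fell, Jag1, Erbb2, Fgfr1, Fgfr2 and Mycn, and Bmp10 rose, where 14.9% of 10834 tested genes fell and 17.5% rose. Under TMM factors these background shares were 17.7% and 15%, and Igf1r was called in addition. The median log2 ratio of the members tested was −1.30, −2.34 and −1.39 in these comparisons, against −0.68, −0.62 and 0.11 over all tested genes. The P1 comparisons share the P1 cells, and the comparisons with E9.5 share the E9.5 cells.

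**Figure D1:**
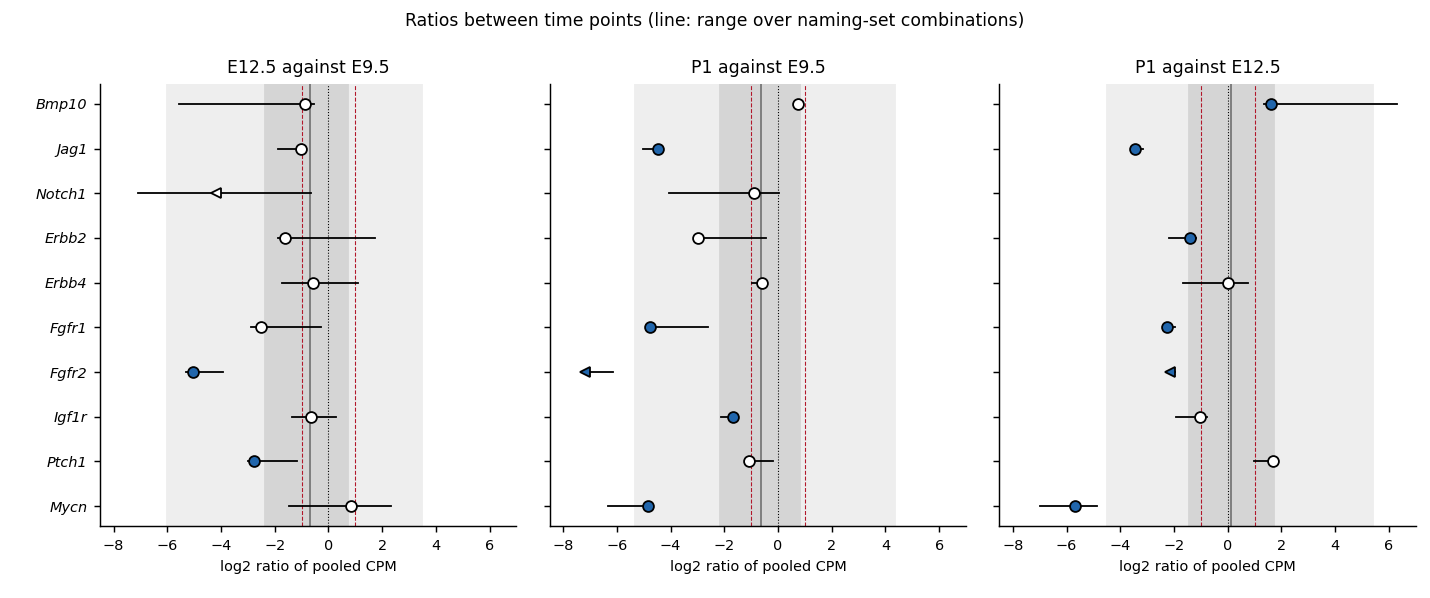
Log2 ratio of pooled CPM of each member (points, filled where called; triangles are bounds where the later time point had no count) with its range over combinations of naming sets (lines). Grey bands show the middle 50% and 90% of all tested genes, the grey line their median, and dashes mark 2-fold. Jag1, Fgfr1, Fgfr2, Igf1r and Mycn lie left of the 2-fold line in P1 against E9.5 over their whole range.

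Bmp10 (chromosome 6, 87428994 to 87437677, GRCm38, GENCODE M21, forward strand), the BMP ligand of trabecular myocardium, was found in 12 of 42 E9.5 cells (28.6%, exact 95% interval 15.7 to 44.6%), in 1 of 29 E12.5 cells (3.45%, 0.0873 to 17.8%) and in 5 of 41 P1 cells (12.2%, 4.08 to 26.2%). Its level ran from 0 to 249 CPM over the E9.5 cells, from 0 to 61.7 CPM over the E12.5 cells and from 0 to 510 CPM over the P1 cells, and the median cell was at 0 in each. The ranges overlapped, and most cells of every time point gave no count. Over the cells that held it, the lowest E9.5 level was 0.400 CPM and the median 25.9 CPM, while the P1 median was 289 CPM. With cells thinned to equal depth the shares were 21.4% at E9.5, 3.45% at E12.5 and 10.5% of 38 P1 cells. Both E9.5 naming sets held Bmp10 in 28.6% of cells at unequal depth. After thinning these shares were 28.6% in set C and 17.9% in set N530. The pooled level was 16.6 CPM (95% Poisson interval 13.4 to 20.4) in set C and 17.2 CPM (16.4 to 18.1) in set N530. These levels overlapped within counting error, but 1 cell gave 59.1% of the counts in set C and 1 cell 57.7% in set N530. Without these cells the levels were 7.16 CPM in set C and 7.58 CPM in set N530. At E12.5 all 476 counts came from 1 cell of set N523, and set C had none.

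Pooled by age, Bmp10 stood at 17.2, 9.42 and 29.0 CPM from the youngest hearts to the oldest. P1 was 3.08-fold higher than E12.5 (log2 1.62, from 1.35 to at least 6.31 over the naming sets), which was called, and 1.69-fold higher than E9.5 (log2 0.76, 0.75 to 0.80), which was not. A single cell decided much of these values. At E9.5 1 cell of set N530 gave 54.6% of the Bmp10 counts, and that cell had 3586 CPM of cardiomyocyte markers. Without it the E9.5 level was 8.10 CPM, and leaving out all cells under 10000 CPM of these markers moved the log2 ratio to E9.5 from 0.76 to 1.87. At P1 1 cell gave 38.4% of the Bmp10 counts, and without it the P1 level of 18.3 CPM was less than 2-fold above that of E12.5. Without the sole E12.5 cell Bmp10 was not detectable at E12.5, and among cells with 3000 or more genes the log2 ratio of 0.70 to E12.5 was not called. The call was also lost with means of deposited TPM and at 4-fold.

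The P1 cells with Bmp10 shared another gene. In 4 of the 5, Bmp10 stood at 105, 289, 302 and 510 CPM, and these cells held 2529 to 6034 CPM of Sln, which encodes sarcolipin, a regulator of the calcium pump known from atrial muscle. The fifth cell held 1 count of Bmp10 (4.61 CPM), no Sln and 7861 CPM of the ventricular light chain gene Myl2. Sln was at 1351 CPM or more in 6 P1 cells and at 74.8 CPM or less in the other 35, so that a line at 1000 CPM, chosen after these values were seen, separated them. Bmp10 was found in 4 of the 6 and in 1 of the 35. No E9.5 cell held a count of Sln, and the sole E12.5 cell with Bmp10 held no Sln and 21985 CPM of Nppa, the natriuretic peptide gene of trabecular and atrial myocardium. Nppa also reached 1000 CPM without Bmp10 in 3 E12.5 cells, up to 32004 CPM, and in 6 P1 cells.

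At E9.5 Bmp10 went with Nppa in 1 naming set. In set C the 4 cells with 836 CPM or more of Nppa all held Bmp10, at 22.4, 29.3, 37.1 and 195 CPM, and none of the other 10 cells did. Of these 10, 9 held neither gene, among them the 3 cells of the set under 10000 CPM of cardiomyocyte markers. In set N530 every cell held Nppa, and Bmp10 was found in 6 of the 17 cells with 500 CPM or more of it and in 2 of the rest. Spearman's rho of the levels was 0.911 over the 14 cells of set C but 0.211 over the 28 of set N530, a description over cells that share processing and differ in depth. For Myl2 it was 0.777 and −0.03. Of the 2400 genes common in all embryonic naming sets, Mest, Trim35, Naa50, Ndufa2 and Mrps14 ranked most like Bmp10 (mean rho over both E9.5 sets 0.51 to 0.53), and Idh1, Tgfb2, Tsen34, Vim and Dazap2 least (−0.46 to −0.41). The E12.5 sets could not be used for this, as Bmp10 was found in no cell or 1 cell of each, and with so few cells these ranks are no finding.

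**Figure D2:**
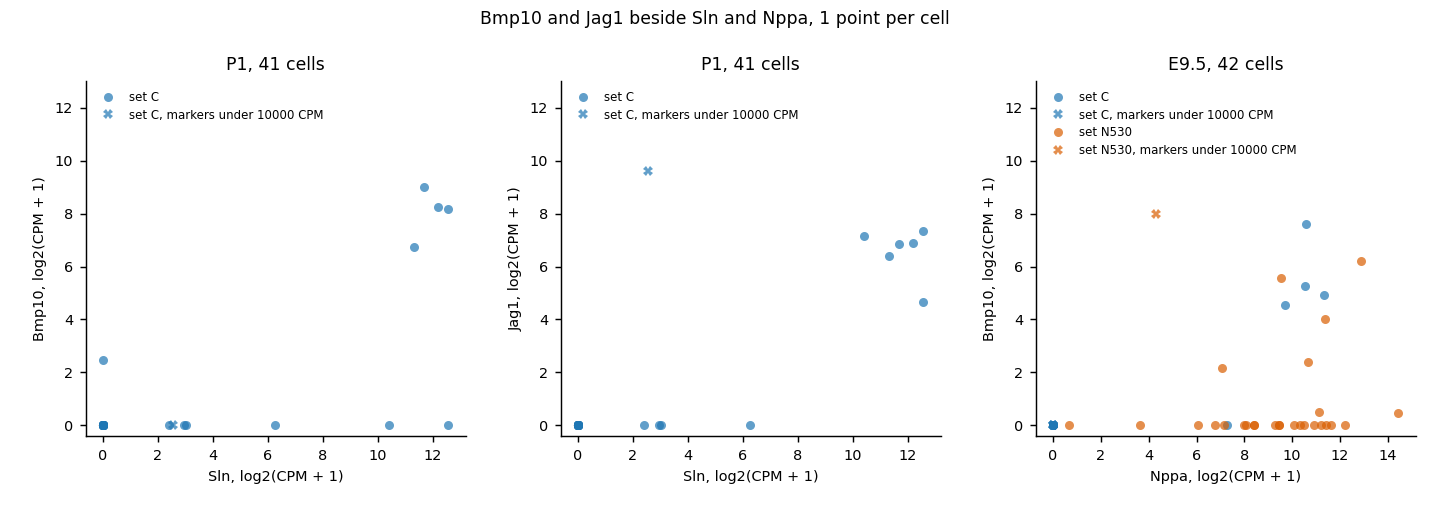
Levels in single cells on a log2(CPM + 1) scale, 1 point per cell, with Bmp10 and Jag1 against Sln at P1 (41 cells) and Bmp10 against Nppa at E9.5 (42 cells, colours show naming sets). Crosses are cells under 10000 CPM of cardiomyocyte markers. The 6 P1 cells at the right of the Sln axis all hold Jag1 and 4 of them hold Bmp10.

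Jag1 (chromosome 2, 137081456 to 137116644, reverse strand), the Notch ligand Jagged1, was found in 40 of 42 E9.5 cells (95.2%, 83.8 to 99.4%), in 20 of 29 E12.5 cells (69%, 49.2 to 84.7%) and in 7 of 41 P1 cells (17.1%, 7.15 to 32.1%). When cells were thinned to 100000 counts, with 38 P1 cells deep enough, the shares were 88.1%, 69% and 18.4%. The median E9.5 cell held 758 CPM and the highest 4929 CPM, and for E12.5 cells these were 161 and 1852 CPM. The lowest cell was at 0 at each time point, and at P1 the median was also 0 and the maximum 788 CPM. The bulk of the cells thus moved down from each time point to the next, although the ranges overlapped.

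Pooled, Jag1 stood at 869 CPM (864 to 875), 434 CPM (428 to 440) and 39.3 CPM (34.7 to 44.3). P1 was 22.1-fold lower than E9.5 (log2 −4.47, −5.01 to −4.43 over the naming sets) and 11.0-fold lower than E12.5 (−3.47, −3.54 to −3.14). E12.5 was 2.0-fold lower than E9.5 (−1.0, −1.87 to −0.89), which did not pass in every combination of naming sets. Without the cell with the most Jag1 counts at each time point it did (−1.33). The P1 cell at 788 CPM gave 60.4% of the P1 counts, and it held 360 CPM of cardiomyocyte markers and 7 of 10 endothelial markers at 10 CPM or more. Without that cell Jag1 was at 16.0 CPM in 6 of 40 P1 cells. Without all cells under 10000 CPM of cardiomyocyte markers the log2 ratios of P1 were −5.82 to E9.5 and −4.76 to E12.5.

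The 6 other P1 cells with Jag1 were the 6 cells with high Sln, at 24.1 to 160 CPM of Jag1 (median 115 CPM). Thus Jag1 was found in 6 of 6 cells with high Sln and in 1 of the other 35. At E12.5 1 of 2 cells with 1000 CPM or more of Sln held Jag1, as did 19 of the other 27. Igf1r was found in the same 6 P1 cells and in 21 of the other 35, and Erbb4 in 3 of the 6 and 4 of the 35. Erbb2 and Notch1 were each found in 1 of the 6, and in 3 and 2 of the 35. Mycn, Fgfr1 and Ptch1 were found in none of the 6 and in 2, 2 and 3 of the 35, too few to show a contrast.

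Notch1 (chromosome 2, 26457903 to 26516663, reverse strand), the receptor, was near the limit of detection. It was found in 4 of 42 E9.5 cells (9.52%, 2.66 to 22.6%), in 0 of 29 E12.5 cells, which allows a share of up to 10.3% at a limit of 3 cells and of 11.9% by the exact 95% interval, and in 3 of 41 P1 cells (7.32%, 1.54 to 19.9%). The level was 0 in the lowest and the median cell of each time point, and the highest cell reached 152 CPM among E9.5 cells and 12.7 CPM among P1 cells. The E9.5 cell at 152 CPM, of set C, held 131 CPM of cardiomyocyte markers and 9 of 10 endothelial markers at 10 CPM or more. Without the 4 E9.5 cells under 10000 CPM of cardiomyocyte markers Notch1 was at 0.594 CPM in 3 of 38 cells. At P1 the gene had 4 counts in all. All 4 E9.5 cells with Notch1 also held Jag1, but so did 40 of all 42 E9.5 cells. Notch2, the paralogous receptor, was found in 33, 21 and 22 cells, at 119, 70.5 and 79.5 CPM.

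**Figure D3:**
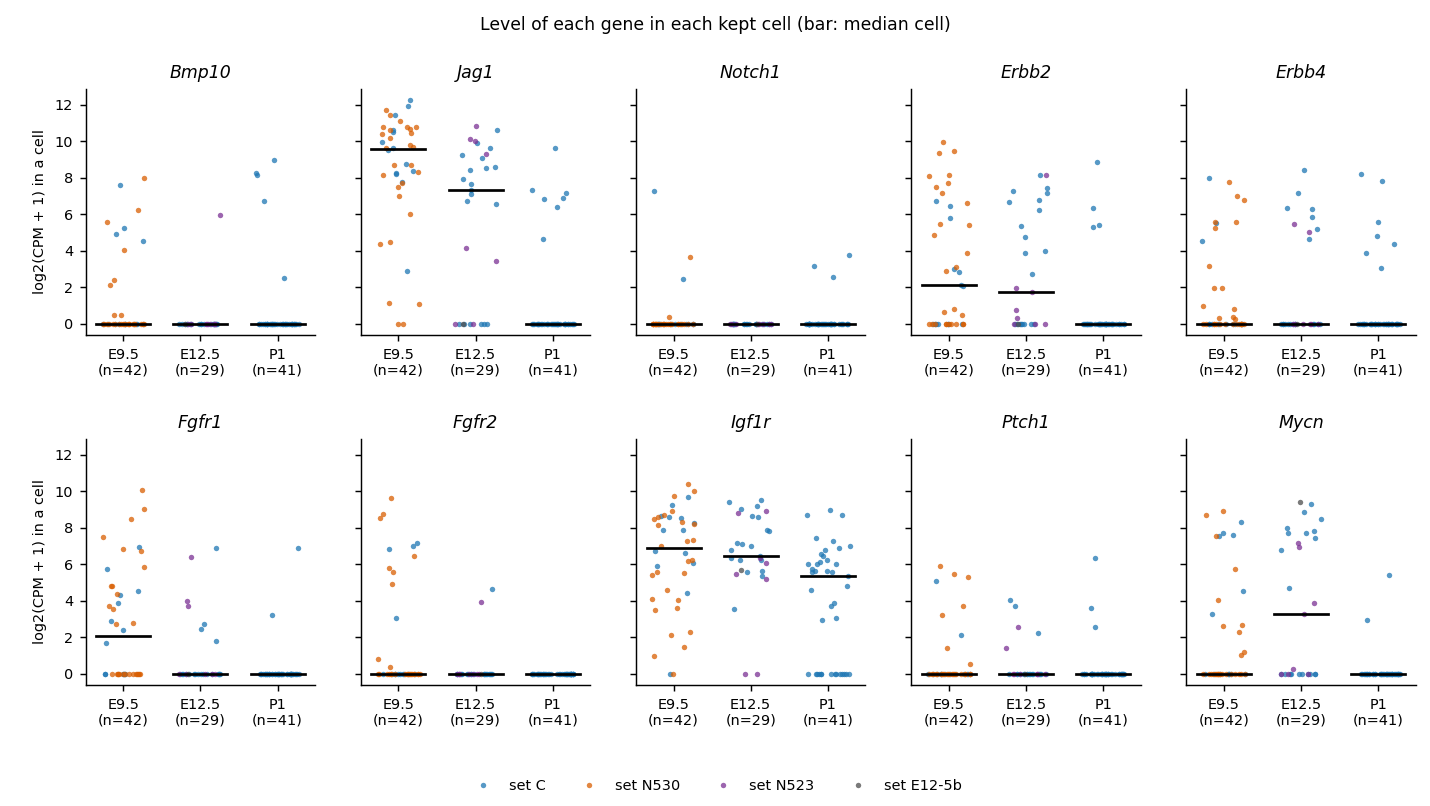
Level of each of the 10 genes in each kept cell on a log2(CPM + 1) scale at E9.5 (42 cells), E12.5 (29) and P1 (41). Colours show naming sets and bars the median cell. Jag1, Igf1r and Erbb2 have median cells above 0 at both embryonic times, Fgfr1 at E9.5 and Mycn at E12.5, and at P1 the median cell is above 0 for Igf1r alone, at 39.7 CPM.

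Erbb2 (chromosome 11, 98412470 to 98437716, forward strand), the co-receptor for neuregulin, was found in 25 of 42 E9.5 cells (59.5%, 43.3 to 74.4%), 17 of 29 E12.5 cells (58.6%, 38.9 to 76.5%) and 4 of 41 P1 cells (9.76%, 2.72 to 23.1%). After thinning the shares were 40.5%, 44.8% and 10.5%. The median and highest E9.5 cells were at 3.30 and 996 CPM, the E12.5 cells at 2.38 and 285 CPM and the P1 cells at 0 and 470 CPM, with the lowest cell at 0 throughout. Fewer P1 cells held the gene, but the highest P1 cell lay within the range of the embryonic cells. This P1 cell was also the one with the most Bmp10.

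The pooled level of Erbb2 depended on the naming set. At E9.5 set C had 19.3 CPM and set N530 118 CPM, and at E12.5 set C had 64.5 CPM and set N523 31.9 CPM, of which 97.7% came from 1 cell. Without that cell set N523 was at 0.834 CPM. E12.5 against E9.5 therefore ran from −1.88 to 1.74 on the log2 scale over the naming sets, so that no direction held. P1 against E9.5 was −3.00 (−3.07 to −0.46), which was not called, but it was called without the cell with the most Erbb2 counts at each time point (−4.51) and among cells with 3000 or more genes (−3.83). P1 against E12.5 was −1.39 (2.62-fold lower, −2.20 to −1.18), which was called. At P1 1 cell gave 72.9% of the counts, and without the cell with the most counts at each time point the fall from E12.5 to P1 (−1.65) no longer passed in every combination.

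Erbb4 (chromosome 1, 68032186 to 69108059, reverse strand), the receptor that binds neuregulin, was found in 17 of 42 E9.5 cells (40.5%, 25.6 to 56.7%), 9 of 29 E12.5 cells (31.0%, 15.3 to 50.8%) and 7 of 41 P1 cells (17.1%, 7.15 to 32.1%). After thinning the shares were 23.8%, 31.0% and 18.4%, which overlapped in their intervals. The median cell was at 0 at each time point and the highest at 253, 339 and 297 CPM. The pooled levels of 20.1, 13.3 and 13.3 CPM gave no called difference, with log2 ratios of −0.59 (−1.73 to 1.09) for E12.5 to E9.5, −0.59 (−0.97 to −0.56) for P1 to E9.5 and 0.00 (−1.66 to 0.77) for P1 to E12.5. The P1 to E9.5 ratio turned with the minimum of genes per cell, to 0.03 at 1000 and 1.11 at 3000. Single cells gave 36.7% of the E9.5 counts and 48.4% of the P1 counts, without which these levels were 13.2 and 7.04 CPM. Erbb2 and Erbb4 were found together in 12 of the E9.5 cells, in 6 at E12.5 and in 1 at P1.

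Fgfr1 (chromosome 8, 25513654 to 25575718, forward strand), an FGF receptor, was found in 22 of 42 E9.5 cells (52.4%, 36.4 to 68.0%), 7 of 29 E12.5 cells (24.1%, 10.3 to 43.5%) and 2 of 41 P1 cells (4.88%, 0.596 to 16.5%). After thinning the shares were 47.6%, 13.8% and 5.26%. The median E9.5 cell was at 3.25 CPM and the highest at 1092 CPM, whereas at E12.5 and P1 the median cell was at 0 and the highest at 118 CPM. Pooled levels of 79.3, 13.9 and 2.93 CPM made P1 27.0-fold lower than E9.5 (log2 −4.76, −4.82 to −2.61) and 4.76-fold lower than E12.5 (−2.25, −2.32 to −1.95), a call lost among cells with 3000 or more genes and without titles ending in "no". The fall from E9.5 to E12.5 of 2.51 on the log2 scale was not called, as it ranged from −2.87 to −0.29. At E12.5 1 cell gave 69.6% of the counts, and without it the level was 4.79 CPM. At P1 19 of the 20 counts came from 1 cell, without which 1 count was left, below the floor of 3 counts, so that no ratio is given for it.

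Fgfr2 (chromosome 7, 130162451 to 133123350, reverse strand), the receptor of epithelial and mesenchymal FGF signals, was found in 13 of 42 E9.5 cells (31.0%, 17.6 to 47.1%), 2 of 29 E12.5 cells (6.90%, 0.846 to 22.8%) and 0 of 41 P1 cells, which allows a share of up to 7.32% at a limit of 3 cells and of 8.60% by the exact 95% interval. The highest E9.5 cell held 798 CPM and the highest E12.5 cell 24 CPM, and the median cell was at 0. Both E9.5 naming sets held the gene, in 28.6% of cells of set C and 32.1% of set N530. E12.5 (1.96 CPM) was 32.9-fold lower than E9.5 (64.5 CPM; log2 −5.04, −5.29 to −3.93). P1, set to the floor of 3 counts over the pooled cells, was at least 147-fold lower than E9.5, a call lost only in deposited TPM, which give no bound (log2 −7.20, −7.24 to −6.14 over the naming sets) and at least 4.45-fold lower than E12.5 (−2.15, −2.21 to −1.95). Against E9.5 cells of set C alone the bound was 70.3-fold, and with cells thinned to equal depth it was 60.3-fold. Without the E9.5 cell with the most Fgfr2 counts, at 425 CPM, it was 95.8-fold. The call against E12.5 rests on 99 counts at E12.5, of which 85.9% came from 1 cell, and without that cell E12.5 was at 0.313 CPM and below what 3 counts at P1 allow. It was also lost among cells with 3000 or more genes, in deposited TPM, in thinned cells, without titles ending in "no" and at 4-fold. At E9.5 10 of the 13 cells with Fgfr2 also held Fgfr1.

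Igf1r (chromosome 7, 67952827 to 68233668, forward strand), the receptor for IGF1 and IGF2, was the member found most evenly. It was found in 40 of 42 E9.5 cells (95.2%, 83.8 to 99.4%), 27 of 29 E12.5 cells (93.1%, 77.2 to 99.2%) and 27 of 41 P1 cells (65.9%, 49.4 to 79.9%). From the lowest over the median to the highest cell, E9.5 levels were 0, 117 and 1355 CPM, E12.5 levels 0, 86.5 and 746 CPM and P1 levels 0, 39.7 and 495 CPM. The ranges overlapped while the median cell moved down each time. Pooled levels of 212, 136 and 66.6 CPM made P1 3.19-fold lower than E9.5 (log2 −1.67, −2.13 to −1.64), which was called. P1 against E12.5 (−1.03, −1.91 to −0.78) and E12.5 against E9.5 (−0.65, −1.35 to 0.27) did not pass in every combination.

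Ptch1 (chromosome 13, 63508328 to 63573598, reverse strand), the Hedgehog receptor, was found in 9 of 42 E9.5 cells (21.4%, 10.3 to 36.8%), 5 of 29 E12.5 cells (17.2%, 5.85 to 35.8%) and 3 of 41 P1 cells (7.32%, 1.54 to 19.9%). After thinning the shares were 11.9%, 6.90% and 5.26%. The highest cells of Ptch1 were at 59.1, 15.5 and 80.1 CPM and its median cell at 0. From E9.5 (5.57 CPM) to E12.5 (0.811 CPM) the pooled level fell (6.87-fold, log2 −2.78, −2.99 to −1.18), a call on 41 counts at E12.5 that was lost with means of cell CPM or deposited TPM, TMM factors, thinned cells or no titles ending in "no". The pooled log2 ratio remained below 0 there, for example with TMM factors (−2.35), thinned cells (−2.58) and no titles ending in "no" (−2.74). At P1 it was 2.64 CPM, of which 77.8% came from 1 cell, and the log2 ratio to E12.5 of 1.70 (0.98 to 1.88) was not called. That ratio had no firm direction, as it was −0.81 without titles ending in "no" and −0.12 among cells with 3000 or more genes. Without the cell with the most Ptch1 counts at each time point P1 against E9.5 moved from −1.08 to −2.67 and was called.

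Mycn (chromosome 12, 12936093 to 12941914, reverse strand), a MYC family transcription factor, was found in 16 of 42 E9.5 cells (38.1%, 23.6 to 54.4%), 16 of 29 E12.5 cells (55.2%, 35.7 to 73.6%) and 2 of 41 P1 cells (4.88%, 0.596 to 16.5%). After thinning the shares were 26.2%, 48.3% and 5.26%. The median and highest cells held 0 and 480 CPM in E9.5 hearts, 8.80 and 680 CPM in E12.5 hearts, and 0 and 41.2 CPM in P1 hearts. At E12.5 12 of the 29 cells reached 100 CPM, at E9.5 7 of 42 did, and at P1 none did.

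Pooled, Mycn stood at 29.1, 52.6 and 1.03 CPM, so that P1 was 28.3-fold lower than E9.5 (log2 −4.82, −6.33 to −4.66) and 51.3-fold lower than E12.5 (−5.68, −6.97 to −4.86). Both calls held under each of 15 other settings. At P1 the gene had 7 counts, 85.7% of them in 1 cell, and the setting without that cell left fewer counts there than the floor of 3. At E9.5 1 cell gave 39.8% of the counts, and without it the level was 17.9 CPM. E12.5 against E9.5 was not called (0.86, −1.47 to 2.31). It was 0.64 within set C and 0.54 outside it, and the negative end came from crossing the sets, since set C was above the other set at both time points, by 82.8 to 25.9 CPM in E9.5 cells and 129 to 29.9 CPM in E12.5 cells.

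**Figure D4:**
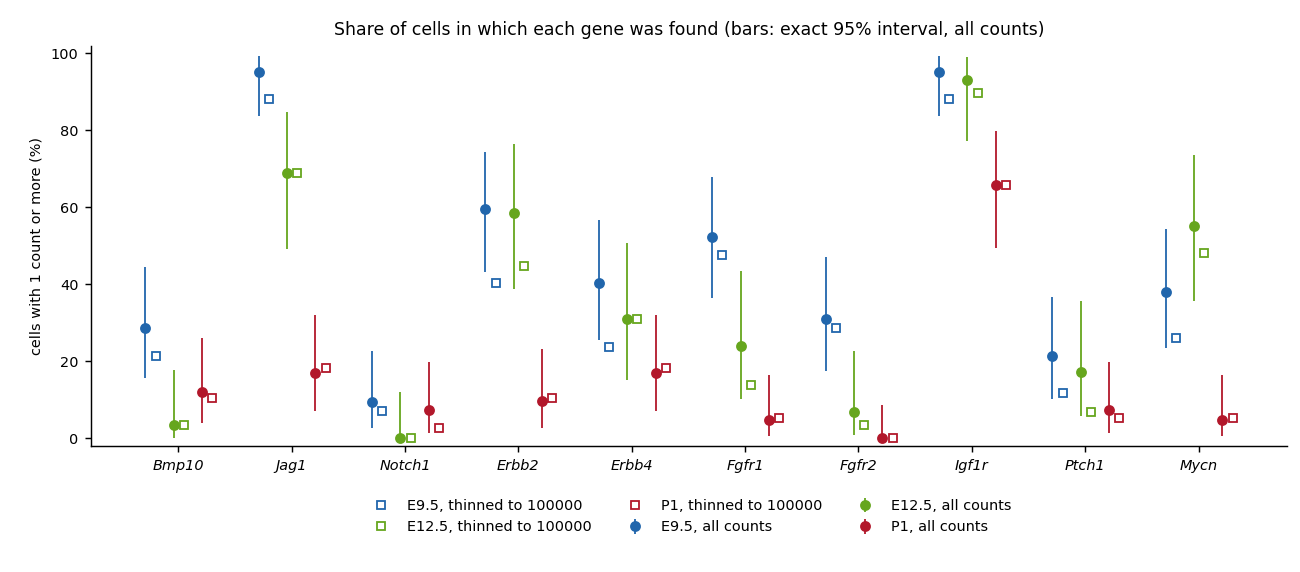
Share of kept cells with 1 count or more of each gene (filled circles with exact 95% binomial intervals, which cover counting error only) and after thinning every cell to 100000 counts (open squares), in percent. For Jag1 the intervals of E9.5 (83.8 to 99.4%) and P1 (7.15 to 32.1%) are far apart, and the thinned shares stay near the unthinned ones.

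Counted over all 10 genes, an E9.5 cell held a median of 5 members, an E12.5 cell 4 and a P1 cell 1. After thinning the medians were 4, 3 and 1. No member was found in 12 of 41 P1 cells, in 1 E12.5 cell and in no E9.5 cell, and only 1 P1 cell held 5 or more, against 25 of 42 at E9.5. The share of cells was lower at P1 than at E9.5 for all 10 members, and for 9 of 10 against the E9.5 cells of set N530. It was also lower for 75.6% of the 11392 genes tested, and after thinning for 63.5% of them and all 10 members, where the median difference was −4.64 percentage points over all tested genes and −21.6 over the members. Kept cells showed a median of 4502.5, 4189 and 2889 genes in order of age. Single cells weighed more at the later time points, where 1 cell gave over 50% of the counts of 4 of the 9 members found at E12.5 and of 5 of the 9 found at P1, against 1 of 10 at E9.5.

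Levels can be ordered between genes only per transcript length, for which the deposited TPM were averaged over cells. At E9.5 Jag1 led with 431 TPM (SD 481 over 42 cells), followed by Igf1r (47), Mycn (44.8), Erbb2 (42.8), Fgfr1 (31.5), Bmp10 (25.5), Fgfr2 (21.8), Erbb4 (11.3), Ptch1 (2.34) and Notch1 (0.946). The SD of each over cells exceeded its mean, so neighbours in this order did not differ beyond their spread. The order also depended on the naming set, as in set C Mycn (53.8) and Igf1r (48) came next to Jag1, Bmp10 (30.6) was ahead of all other members, and Erbb2 (7.53) and Fgfr1 (7.08) stood behind Fgfr2 (11.5). At E12.5 Jag1 (129 TPM), Mycn (93.3) and Igf1r (32) led. At P1 Bmp10 led with 36.5 TPM (SD 125 over 41 cells), ahead of Jag1 (12.4), Igf1r (9.88), Erbb4 (5.88) and Erbb2 (5.04), and the other 5 members were at 1.03 TPM or less. The place of Jag1 at P1 rested on 1 cell at 316 TPM, the one with 360 CPM of cardiomyocyte markers.

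Other genes of the same pathways were taken from lists that leave out the members. Their counts are to be read against all tested genes, of which 11.8% fell and 3.31% rose from E9.5 to E12.5, 26.7% fell and 13.9% rose from E9.5 to P1, and 14.9% fell and 17.5% rose from E12.5 to P1. Of the BMP list 6 of 23 tested genes fell from E9.5 to E12.5 and 17 of 23 from E9.5 to P1, and none rose in either, while from E12.5 to P1 5 of 21 fell and 3 rose. The median log2 ratio of the list from E9.5 to P1 was −3.38, against −0.62 over all tested genes. The target gene Id2 (643, 362 and 61.9 CPM, values being given here in order of age), which encodes an inhibitor of helix-loop-helix factors, fell to P1 from both embryonic times. So did the ligand gene Bmp7 (75.1, 77.4 and 1.03 CPM) and Cdkn1c (491, 593 and 25.8 CPM), a cell cycle inhibitor gene of the list. Id3 (222, 32.1 and 19.5 CPM) fell from E9.5 to both later times. The receptor gene Bmpr1a was not called, at 169, 117 and 125 CPM.

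Of the neuregulin and EGF receptor list 2 of 12 tested genes fell and none rose from E9.5 to E12.5, 4 of 10 fell and 2 rose from E9.5 to P1, and 2 of 10 fell and 3 rose from E12.5 to P1. Its median log2 ratio from E9.5 to P1 was 0.01. Hbegf, an EGF receptor ligand, fell to P1 (56.2, 28.5 and 2.79 CPM), and Erbb2ip, which encodes the ErbB2-binding scaffold Erbin, rose (59.5, 29.2 and 217 CPM). The adaptor gene Grb2 rose from E9.5 (27.9, 28.0 and 70.1 CPM) and Gab1 from E12.5 (60.8, 5.38 and 107 CPM), and Ptpn11, a phosphatase gene of the same pathway, was not called. Nrg1 itself, picked out after its values were seen, was found in 4 E9.5 cells at a pooled 18.2 CPM and had no count later.

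Of the FGF list 4 of 16 tested genes fell and none rose from E9.5 to E12.5, 5 of 17 fell and 5 rose from E9.5 to P1, and 2 of 15 fell and 5 rose from E12.5 to P1. The share that fell from E9.5 to P1 was thus near the 26.7% of all tested genes, and the list's median log2 ratio was −0.42 against −0.62. Fgf1, a ligand, rose from 12.9 and 0.732 CPM to 100 CPM at P1, where it was found in 21 of 41 cells. Fgf13, an intracellular relative of the FGFs, rose from E9.5 (3.52 CPM) to P1 (136 CPM). Dusp6, a target gene of FGF signalling that encodes an ERK phosphatase, fell to P1 (161, 112 and 9.38 CPM), while the feedback inhibitor Spry2 was found in 42, 28 and 41 cells and was not called.

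Of the IGF and insulin list 1 of 16 tested genes fell and 1 rose from E9.5 to E12.5, 3 of 18 fell and 2 rose from E9.5 to P1, and 1 of 18 fell and 3 rose from E12.5 to P1. The share that fell from E9.5 to P1 was below the 26.7% of all tested genes, and the median log2 ratio was −0.25 against −0.62. Igf1, the ligand of Igf1r, which is named after its values were seen, rose from E9.5 to both later times (0.604, 250 and 92.1 CPM, in 3, 9 and 17 cells). Igf2r, the clearance receptor of IGF2 (2979, 1863 and 943 CPM), and Igfbp5, an IGF binding protein (716, 406 and 163 CPM), fell as Igf1r did. Igf2 (915, 622 and 322 CPM) and Grb10, an adaptor of these receptors (905 CPM at E9.5), were lower at P1 in the pooled level but were not called.

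Of the Notch list 6 of 20 tested genes fell and none rose from E9.5 to E12.5, 7 of 20 fell and 2 rose from E9.5 to P1, and 1 of 17 fell and 3 rose from E12.5 to P1. The median log2 ratio from E9.5 to P1 of −0.64 was near the −0.62 of all tested genes. Maml2, a coactivator of Notch transcription, fell to P1 (67.8, 65.5 and 2.93 CPM) and Ncstn, a subunit of γ-secretase, fell from E9.5 to P1 (83.0, 272 and 30.5 CPM). Notch2, Adam10, the protease that cleaves Notch, and Hey2, a target gene kept on in compact myocardium, were not called in any comparison. Of the Hedgehog list 2 of 8 fell and none rose from E9.5 to E12.5, and 1 of 7 fell and 1 rose from E12.5 to P1. From E9.5 to P1 5 of 9 fell and none rose, among them Smo, the transducer that Patched1 holds in check (96.7, 5.86 and 1.32 CPM), Gli3 (12.2, 20.4 and 0 CPM) and the co-receptor gene Gas1 (31.6 CPM at E9.5). Cdon, another co-receptor gene, fell to E12.5 and rose from there to P1 (32.2, 3.19 and 21.0 CPM).

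Of the MYC list none of 9 tested genes was called from E9.5 to E12.5, 1 of 7 fell and 1 rose from E9.5 to P1, and 1 of 8 fell and 1 rose from E12.5 to P1. The gene that rose in both was Mxi1, which encodes an antagonist of MYC (15.2, 3.60 and 62.2 CPM), and Myc, Mga and Mlx were not called. Of the trabecular and compact myocardium list 2 of 19 tested genes fell and none rose from E9.5 to E12.5, 8 of 20 fell and 1 rose from E9.5 to P1, and 2 of 19 fell and 2 rose from E12.5 to P1. The median log2 ratio was −0.95 from E9.5 to P1, against −0.62 over all tested genes, and 0.04 from E12.5 to P1, against 0.11. The gene that rose from E9.5 to P1 in the pooled level was Nppa (2561, 8580 and 7727 CPM). Of its P1 counts 91.3% came from the 6 cells with high Sln, and the median cell went the other way, with 477, 35.4 and 23.6 CPM. Vcan, the matrix proteoglycan of the early ventricle, fell from E9.5 to both later times (1313, 134 and 36.5 CPM), Hand1 fell to P1 (34.6, 112 and 0 CPM), and Fkbp1a fell from E9.5 (673, 643 and 276 CPM), while Cited1 (252, 1095 and 55.9 CPM) was not called.

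**Figure D5:**
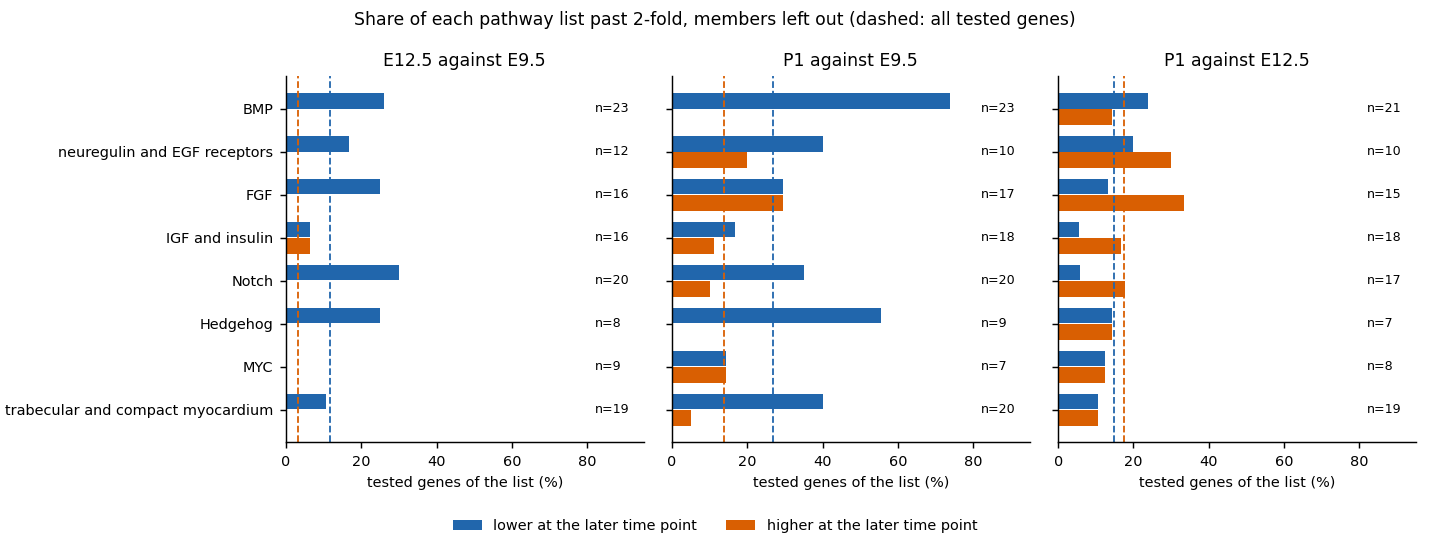
Percent of the tested genes of each pathway list (members left out, n tested at the right) called lower (blue) or higher (orange) at the later time point, with the same share over all tested genes as dashed lines. In P1 against E9.5, 17 of 23 BMP genes and 5 of 9 Hedgehog genes were lower.

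Exons of Erbb2, Fgfr1 and Notch1 overlap genes annotated on the opposite strand, and the annotated span of Fgfr2 takes in exons of Ctbp2 on the same strand, so that reads there may be shared. Reads carry no molecular identifiers, and the intervals given cover counting error only.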

How the data were processed

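Per the labels, αMHC+ cells of αMHC-GFP mouse hearts were profiled one by one at E9.5, E12.5 and P1. The authors amplified cDNA with SMART-Seq V4 on the C1 system, sequenced single reads of 75 bases, mapped them with OLego and deposited a table of gene counts from featureCounts. The deposited TPM values (transcripts per 1000000, linear) were computed by the authors from these counts. The submitters' processing notes name GRCm38 and mm10. Strand settings are not given in the sources used here.

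A cell was kept when at least 2000 genes had a count, and 11 cells, all from P1, were removed (totals of 4903 to 149120 counts). No deposited cell columns were left unused, and no 2 cells held identical counts. Median totals were 2476020, 493238 and 149078 counts in order of age. A time point is 1 sample, so cells were not treated as replicates. Tested genes were found in 3 or more kept cells and reached 1 CPM in the higher time point. A sum of 0 counts was set to a floor of 3 counts. The top cell of a gene was the cell with the most counts of it at a time point, which need not have the highest CPM. Shares carry exact Clopper-Pearson and pooled CPM exact Poisson intervals at 95%. Alternatives were 1000 or 3000 genes per cell, means of cell CPM or of deposited TPM, TMM factors (edgeR 4.0.16), thinning to 100000 counts (seed 1), single naming sets, leaving out the top cell of each gene, cells with titles ending in "no", cells under 10000 CPM of cardiomyocyte markers or cells with 2 or more endothelial markers, 4-fold, pooled CPM alone and no minimum CPM, and a minimum of 2 or 10 counts to find a gene. The code (Python 3.11.15, numpy 2.4.6, pandas 2.3.3, scipy 1.17.1, R 4.3.3) was tested on simulated data.

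The members and lists were chosen with earlier results of these data known. From each pathway list the text names the 4 non-members with the highest mean CPM over the time points, and list genes called in both P1 comparisons that reach 50 CPM. Loci are from GENCODE M21 and promoters from RefSeq (GRCm38.p6), whose build matches that of the notes.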

Additional observations from a re-analysis of the deposited data

Results flagged for a closer look

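The 11 P1 cells with fewer than 2000 genes entered no comparison, and their 714929 counts held signal of 2 members above the limit of 3 counts. Igf1r had 82 counts in 6 of these cells (115 CPM, 95% Poisson interval 91.2 to 142), beside 66.6 CPM in the kept P1 cells. Erbb4 had 64 counts (89.5 CPM, 68.9 to 114), all in 1 cell, beside 13.3 CPM in the kept P1 cells. Of the other members Fgfr1 had 3 counts, Ptch1 had 1 and the other 6 had none.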

How the results depend on the processing

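For E12.5 against E9.5 the count of called members, 2 in the text, was 1 with means of cell CPM, TMM factors, thinned cells, no titles ending in "no" or a 4-fold threshold, 4 without the top cell of each gene, 5 in embryonic cells outside set C, and 6 in set C alone or with pooled CPM alone. In the last 3 settings 50.6%, 28.4% and 44.4% of all tested genes were called lower and 20%, 24.6% and 20.9% higher, far above the 11.8% and 3.31% of the text. For P1 against E9.5 it was 5, and 4 with deposited TPM (Fgfr2 lost) or at 4-fold (Igf1r lost), up to 7 in other settings and 8 with 3000 or more genes per cell. For P1 against E12.5 it was 6, and 2 at 4-fold, 3 with 3000 or more genes, 4 without top cells or titles ending in "no", 5 in deposited TPM or thinned cells, 7 with means of cell CPM, TMM factors or embryonic cells outside set C, and 8 in set C alone or with pooled CPM alone. The shares of all tested genes called higher and lower were 43.1% and 27.7% outside set C, 23.7% and 34% in set C and 34.6% and 30.9% with pooled CPM alone, beside 17.5% and 14.9%. Of the 10 genes ranked by likeness to Bmp10, 3 recurred in thinned cells and 5 with embryonic cells pooled. The causes were not tested. The falls of Jag1 and Mycn to P1 from both times, of Fgfr1 from E9.5 to P1 and of Fgfr2 from E9.5 to E12.5 kept their calls under all 15 settings, and no ratio called in the text turned its direction in any of them. Without their top cells, however, Mycn and Fgfr1 were below the floor of 3 counts at P1. Erbb2 from E9.5 to E12.5, not called in the text, was called higher in set C alone (log2 1.74) and lower outside set C (−1.90). Of 353 ratios under other settings 86 moved by more than the spread over naming sets. TMM moved the median ratio of E12.5 to E9.5 from −0.68 to −0.23, and of P1 to E12.5 from 0.11 to −0.17. Depth limits the low values, as the 41 P1 cells had 6819717 counts in all and the 14 E9.5 cells of set C 5591164. No paired analysis was possible because the labels give no replicate numbers shared between time points and no test was run.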
